A study of Oryza sativa Indica Group with 36 samples.

Results

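Replicate series 1 comprised 12 of 36 RNA-sequencing libraries of rice leaves, those whose titles carry the replicate number 1, and was set against the 24 libraries numbered 2 and 3 within the same genotype and clock hour. Members were chosen by title alone, but the comparison itself was chosen with earlier results of these data known. All genes were compared. The groups were an overexpression line of OsPRR37 made in the rice cultivar Guangluai4 (OE, line OsPRR37-OE5) and Guangluai4 itself (GL), each sampled every 4 hours from 4:00 to 0:00, which gives 6 clock hours, with 3 libraries in each of 12 groups. Seedlings were 45 days old and grew under natural long days, and the uppermost leaf to have fully expanded was taken. OE is 1 line, and neither the promoter of its transgene nor the number of plants in a library is given in the sources used here. The submitters describe the 3 libraries of a group as biological repeats. The labels do not say whether a replicate number stands for the same plants, plot, sampling or sequencing run across hours and genotypes, so these cannot be told apart, and p-values over libraries measure only the spread between these libraries.

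OsPRR37, a clock-associated pseudo-response regulator that OE carries in excess, separated the genotypes in all 3 series. At 0:00 it had 854 CPM in series 1 of OE, against 985 and 945 CPM in series 2 and 3 of OE, and 4.31 CPM in series 1 of GL, against 3.82 and 3.81 CPM in series 2 and 3 of GL. The last value belongs to the library titled as GL replicate 3 at 0:00, which carries the overexpression line in its genotype label; the title was followed, and its OsPRR37 level lies with GL. CPM is a count relative to the scaled library size, set to a common total. Total counts were 10580548 to 13259797 in series 1 and 8065894 to 15769659 in series 2 and 3. The summed level of 5 leaf mesophyll markers was 13683 to 82319 CPM in series 1 and 9277 to 70898 CPM in series 2 and 3, and that of 2 shoot meristem markers was 0 in 12 of 12 libraries of series 1 and in 20 of 24 of series 2 and 3. The locus of RCA, the Rubisco activase, is listed at 0 in 9 libraries, 4 of them of series 1, and no level is given for it. It remains among the tested genes of the Calvin cycle list.

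As background, a leaf reduces nitrate to nitrite in the cytosol and nitrite to ammonium in the chloroplast, where glutamine synthetase and glutamate synthase build the ammonium into amino acids. Genes of nitrate reduction are induced by nitrate and follow the day. Grasses move iron in the shoot bound to nicotianamine and related chelators and store it in vacuoles and in ferritin, and many genes of iron transport are raised when iron is short. Rice leaves also make diterpenoid phytoalexins, antimicrobial compounds whose genes lie partly in clusters, and regulate many defence genes through salicylic acid.

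The first comparison asked how far the 3 series stood apart. Series 1 differed from series 2 and from series 3 in many genes, whereas between series 2 and series 3 no gene passed the test over both genotypes. By quasi-likelihood testing in edgeR, at a Benjamini-Hochberg adjusted p under 0.05, 7819 of 21772 genes were called for series 1 against 2 (35.9%) and 7730 for series 1 against 3 (35.5%). For series 2 against 3 edgeR called 0 genes (0%), with 816 at an unadjusted p under 0.05; DESeq2 called 6, and limma on the FPKM values 5 or 2 by pseudocount. In OE alone edgeR called 7 genes for series 2 against 3 (0.0322%). The comparisons share libraries and are given side by side only. The median absolute log2 difference was 0.227 for series 1 against 2, 0.225 for series 1 against 3 and 0.0749 for series 2 against 3. Log2 differences beyond 1 were found for 7.31%, 7.28% and 1.09% of genes in the same order.

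**Figure D1:**
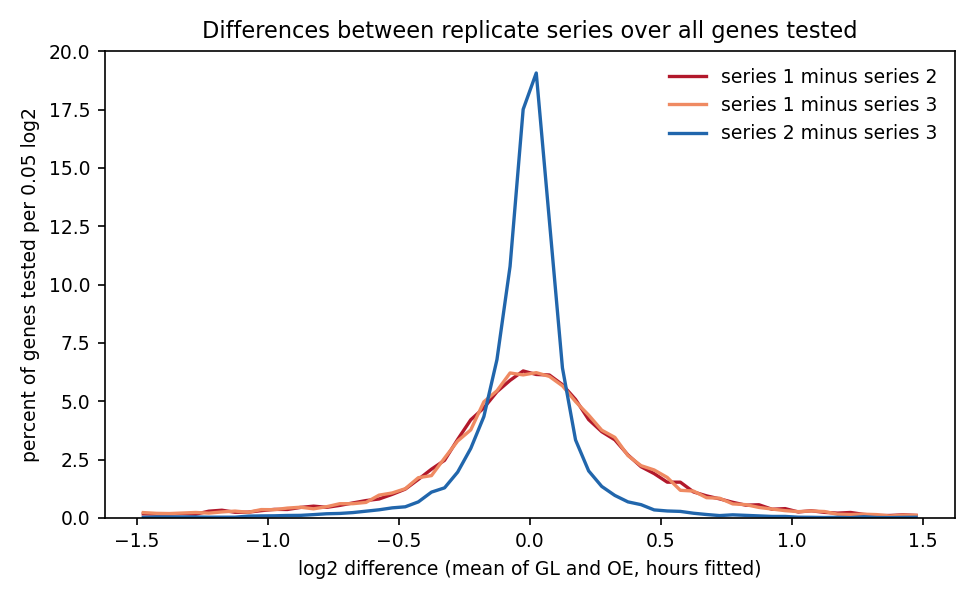
Percent of the 21772 tested genes (vertical axis) in each bin of 0.05 log2 of the difference between 2 replicate series (horizontal axis), averaged over OE and GL with the hours fitted; differences beyond 1.5 are not drawn. The curves of series 1 minus 2 and series 1 minus 3 are wide and nearly alike, with 21.6% and 21.3% of genes beyond 0.5, and the curve of series 2 minus 3 is narrow, with 4.61%.

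Within the 12 groups, the chi-square per gene between 2 libraries, over genes with at least 20 counts in the pair, was 18.4 to 64.8 between series 1 and 2, 16.01 to 88.4 between series 1 and 3 and 6.09 to 39.03 between series 2 and 3. Sampling noise alone gives a value near 1, so every pair differed by more than that and no libraries were merged. The highest values between series 2 and 3 were 37.4 in OE and 39.03 in GL, both at 4:00.

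Set against series 2 and 3 together and averaged over both genotypes, series 1 differed in 9281 genes (42.6%), 4909 higher (22.5%) and 4372 lower (20.1%). With each series of 6 hours counted once, limma called 7546. A difference of at least 2-fold was called for 443 genes higher in series 1 (2.03%) and 863 lower (3.96%). The series 1 library was above both other libraries in all 12 groups for 373 genes (1.71%) and below both in all 12 for 455 (2.09%).

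The second comparison asked whether both genotypes shared the difference. Series 1 differed in 8060 genes in OE (37%), 4084 higher (18.8%) and 3976 lower (18.3%). In GL it differed in 3521 (16.2%), 1984 higher (9.11%) and 1537 lower (7.06%). Without the GL series 1 library at 20:00 the count in GL was 2217. Both genotypes called 2825 genes in the same direction (13%), which were 35.05% of the OE calls and 80.2% of the GL calls, and 4 in opposite directions (0.0184%). The count in the same direction was 1836 without the GL series 1 library at 20:00, 1466 in limma with each series counted once, 850 against series 3 only and 1534 against series 2 only, and the GL count in the last 3 was 1739, 1019 and 1997. Of the genes with 1 direction, 1521 were higher (6.99%) and 1304 lower (5.99%). The OE and GL comparisons have no library in common. Across all genes the log2 differences in OE and GL had a Pearson r of 0.70; this is a description over genes, which are not independent. For the difference between OE and GL in the series 1 effect, edgeR called 0 genes (0%), with 2406 at an unadjusted p under 0.05, and DESeq2 called 75. Without the GL series 1 library at 4:00 edgeR called 191.

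Single genes of the nitrogen list stood far apart between the series, while the list as a whole held genes that differed in both directions. NIA1 (OS08G0468100), a nitrate reductase gene at chromosome 8, 23033230 to 23052438 of IRGSP-1.0, had 20.9 to 910.4 CPM in series 1 (median 177), against 0.338 to 124 CPM in series 2 and 3 (median 10.7). At 0:00 it had 99.3 CPM in series 1 of OE, against 0.569 and 0.3699 CPM in series 2 and 3 of OE, and 40.5 CPM in series 1 of GL, against 1.88 and 2.71 CPM in series 2 and 3 of GL. At 8:00, its highest hour, it had 910.4 CPM in series 1 of OE, against 101 and 105 CPM in series 2 and 3 of OE, and 776 CPM in series 1 of GL, against 102 and 124 CPM in series 2 and 3 of GL. Series 1 was above both other libraries in all 12 groups. The log2 difference was 3.71 ± 0.27 (SE; adjusted p = 4.00e-11), with 4.303 in OE and 3.13 in GL. Below, a value in brackets before an adjusted p is the same quantity, the log2 difference of series 1 from series 2 and 3 with its SE.

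OS01G0357100 of the nitrogen list, which the reference table leaves unnamed, lies at chromosome 1, 14446952 to 14453257. It had 132 to 573 CPM in series 1 (median 413), against 2.97 to 62.4 CPM in series 2 and 3 (median 9.76), and the ranges of the series did not overlap. At 4:00 it had 484 CPM in series 1 of OE, against 4.49 and 2.97 CPM in series 2 and 3 of OE, and 522 CPM in series 1 of GL, against 3.73 and 4.87 CPM in series 2 and 3 of GL. The log2 difference was 4.83 ± 0.27 (adjusted p = 2.28e-13). OS01G0357150, outside the lists, overlaps it at chromosome 1, 14447634 to 14453473 and had 369.8 to 1594 CPM in series 1 (median 1184), against 8.49 to 185 CPM in series 2 and 3 (median 30.2); the library kit does not mark strand, so reads of these loci cannot be told apart. OS02G0770800, a further member, had 0.0685 to 19.3 CPM in series 1 (median 2.62), against 0 to 0.323 CPM in series 2 and 3 (median 0).

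Of the nitrogen list, 5 of 10 tested genes were higher and 3 lower in series 1 (50% and 30%, beside 22.5% and 20.1% over all genes), with a median log2 difference of 0.09 beside 0.02 over all genes. OS03G0291500, at chromosome 3, 10120288 to 10124362, differed in the other direction, with 0 to 11.8 CPM in series 1 (median 0.757), against 0.4301 to 97.9 CPM in series 2 and 3 (median 7.14), and was below both other libraries in all 12 groups (-3.66 ± 0.31, adjusted p = 9.63e-10). On log2(FPKM + 1), which understates differences of low genes, the value was -2.03. GS1;2 (OS03G0223400), a cytosolic glutamine synthetase gene named after its values were seen, had 10.3 to 195 CPM in series 1 (median 42.9), against 24.7 to 259 CPM in series 2 and 3 (median 63.00) and was lower too (-0.57 ± 0.11, adjusted p = 8.32e-05). The third that was lower, NRT2.3, a nitrate transporter gene, was named after its values were seen (-0.35 ± 0.12, adjusted p = 0.0227). GS2 (OS04G0659100), the plastid glutamine synthetase gene, stands in the photorespiration list and had 1042 to 4724 CPM in series 1 (median 3432), against 702 to 3195 CPM in series 2 and 3 (median 1913). It was above both other libraries in all 12 groups (0.700 ± 0.07, adjusted p = 1.81e-08).

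**Figure D2:**
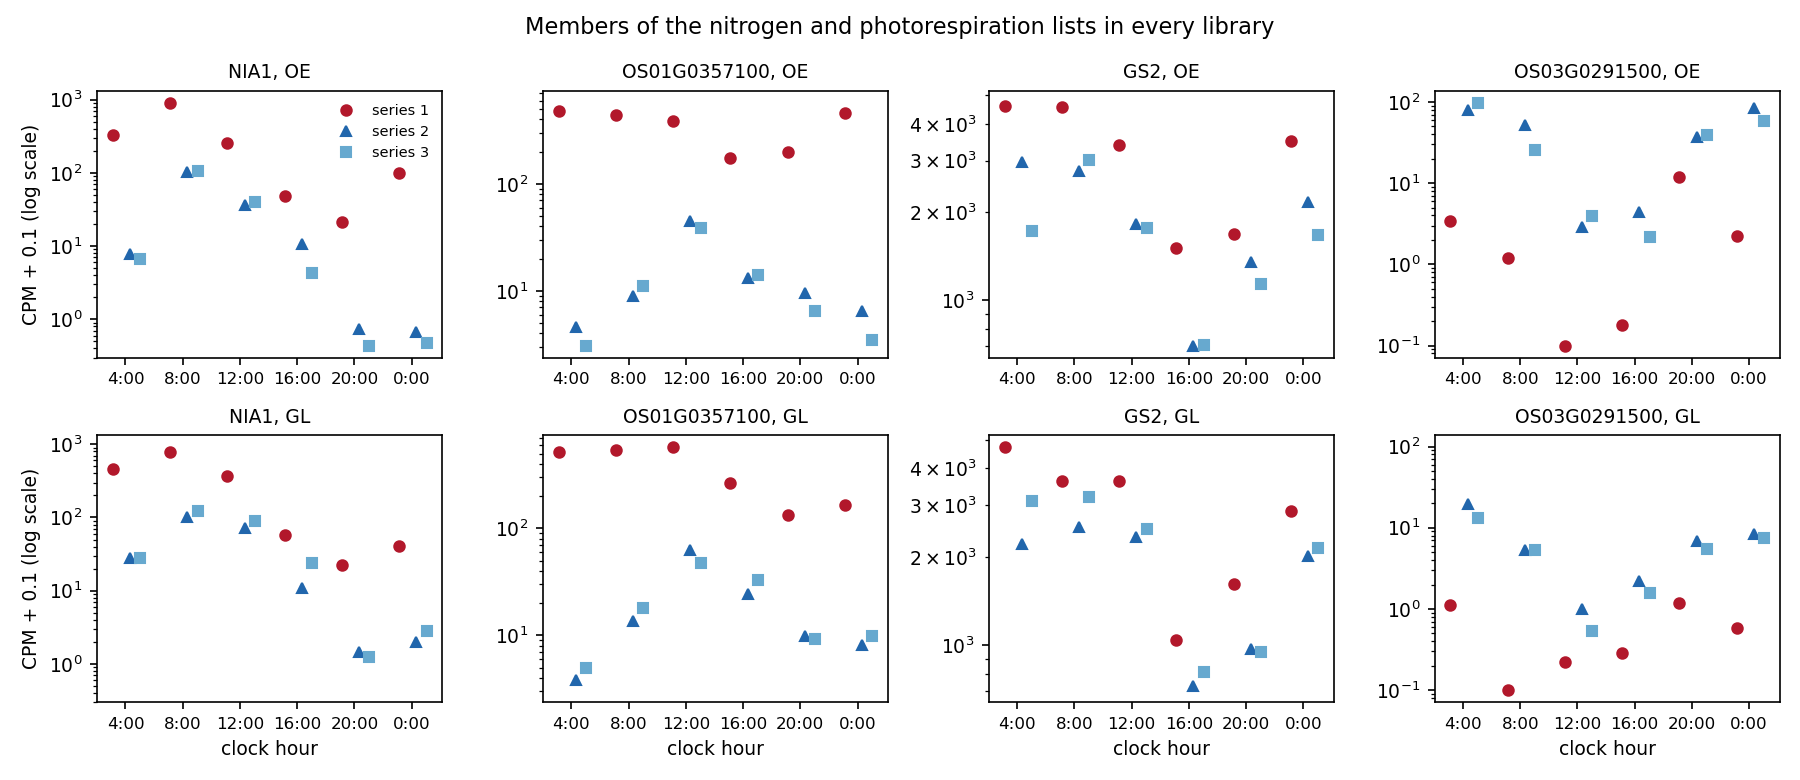
CPM plus 0.1 on a log axis for NIA1, OS01G0357100, GS2 and OS03G0291500 against the clock hour, with OE in the upper row, GL in the lower row and 1 point per library. The series 1 circles lie above both other series at every hour for NIA1, OS01G0357100 and GS2 and below both for OS03G0291500.

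A list of nitrate-response genes was written after the first results were seen. Of its members, 9 of 13 tested genes were higher and 3 lower in series 1, with a median of 0.26. The shares were 69.2% and 23.1%, beside 22.5% and 20.1% over all genes, so the share that was lower is near that over all genes. Leaving out the 1 member whose values were already known, the counts were 8 higher and 3 lower of 12. OS03G0609500 had 3.700 to 145 CPM in series 1 (median 22.5), against 0.482 to 13.4 CPM in series 2 and 3 (median 1.88) and was above both other libraries in all 12 groups (3.56 ± 0.16, adjusted p = 2.02e-15). NIGT1 (OS02G0325600), a nitrate-inducible transcriptional repressor, had 3.004 to 23.8 CPM in series 1 (median 10.98), against 0.8601 to 8.34 CPM in series 2 and 3 (median 4.08), a log2 difference of 1.41 ± 0.15 (adjusted p = 3.24e-08). CIPK23 (OS07G0150700), a protein kinase known in Arabidopsis to act on nitrate and potassium transport, had 17.5 to 41.2 CPM in series 1 (median 23.8), against 19.6 to 96.7 CPM in series 2 and 3 (median 43.7) and was below both other libraries in all 12 groups (-0.85 ± 0.07, adjusted p = 1.21e-09).

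Iron and metal transport genes differed by similar amounts, in both directions. YSL2, NRAMP1, VIT2, ZIP2 and OS01G0647200 were put into the longer iron-response list because they had been seen among the largest differences, so their values describe how they were chosen. YSL2 (OS02G0649900), a transporter of metals bound to nicotianamine, at chromosome 2, 26170453 to 26175828, had 12.5 to 455 CPM in series 1 (median 110.0), against 1.63 to 13.7 CPM in series 2 and 3 (median 3.84). At 20:00 it had 145 CPM in series 1 of OE, against 6.27 and 10.9 CPM in series 2 and 3 of OE, and 175 CPM in series 1 of GL, against 3.07 and 2.03 CPM in series 2 and 3 of GL. It was above both other libraries in all 12 groups, although at 12:00 in GL the gap was narrower, with 13.8 CPM in series 1 of GL, against 8.12 and 2.26 CPM in series 2 and 3 of GL. The log2 difference was 4.34 ± 0.300 (adjusted p = 1.76e-11), with 4.49 in OE and 4.19 in GL.

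NRAMP1 (OS07G0258400), a divalent metal transporter gene at chromosome 7, 8965751 to 8970714, had 5.77 to 161 CPM in series 1 (median 64.2), against 0.757 to 7.64 CPM in series 2 and 3 (median 2.501), a log2 difference of 4.22 ± 0.29 (adjusted p = 2.21e-11). IRO3 (OS03G0379300), a bHLH transcription factor of the iron deficiency response, entered that list before its values were known, was picked for mention after they were seen, and had 13.03 to 173 CPM in series 1 (median 69.7), against 5.702 to 28.5 CPM in series 2 and 3 (median 9.897), a log2 difference of 2.53 ± 0.26 (adjusted p = 3.33e-08). For IRO3 the gap was narrow at 8:00 in GL, with 17.22 CPM in series 1, against 13.65 and 16.07 CPM in series 2 and 3. NRAMP1 and IRO3 were above the other libraries in all 12 groups. The unnamed list members OS04G0578600, with 3.24 to 93.9 CPM in series 1 (median 20.7), against 0 to 1.48 CPM in series 2 and 3 (median 0.207), and OS07G0142100, with 1.05 to 82.1 CPM in series 1 (median 12.6), against 0 to 1.602 CPM in series 2 and 3 (median 0.229), were above them in all 12 groups as well. OS01G0647200 had 61.9 to 870.3 CPM in series 1 (median 366), against 0.703 to 69.6 CPM in series 2 and 3 (median 11.5).

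Other iron genes were lower in series 1. VIT2 (OS09G0396900), a vacuolar iron transporter gene at chromosome 9, 13831871 to 13833607, had 0 to 18.7 CPM in series 1 (median 3.21), against 11.3 to 92.3 CPM in series 2 and 3 (median 35.8). At 4:00 it had 0.453 CPM in series 1 of OE, against 16.8 and 20.5 CPM in series 2 and 3 of OE, and 0 CPM in series 1 of GL, against 11.3 and 13.4 CPM in series 2 and 3 of GL. Series 1 was below both other libraries in all 12 groups (-3.17 ± 0.24, adjusted p = 7.10e-11). ZIP2 (OS03G0411800), of the ZIP family of metal transporters, at chromosome 3, 17008237 to 17011218, had 5.72 to 43.4 CPM in series 1 (median 15.9), against 42.8 to 491 CPM in series 2 and 3 (median 124), a log2 difference of -2.74 ± 0.21 (adjusted p = 1.58e-10). NAS3 (OS07G0689600), a nicotianamine synthase gene picked for mention in the same way as IRO3, had 0.376 to 29.8 CPM in series 1 (median 5.49), against 7.18 to 65.9 CPM in series 2 and 3 (median 18.6), a log2 difference of -1.97 ± 0.24 (adjusted p = 3.65e-07). Both were below the other libraries in all 12 groups. For NAS3 the gap was narrow at 12:00 in GL. Series 1 had 29.8 CPM there, against 43.78 and 29.89 CPM in series 2 and 3. VIT1 (OS04G0463400), a second vacuolar iron transporter gene, also picked in that way, was higher in series 1, so the family did not differ in 1 direction (0.55 ± 0.07, adjusted p = 6.03e-07).

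Of the first iron list, 0 of 3 tested genes were higher and 2 lower, beside 22.5% higher and 20.1% lower over all genes. The lower members were OS12G0106000, with 16.8 to 250.4 CPM in series 1 (median 36.5), against 51.4 to 1003 CPM in series 2 and 3 (median 117), a log2 difference of -1.56 ± 0.13 (adjusted p = 6.04e-10), and OS11G0106700, with 8.78 to 80.9 CPM in series 1 (median 21.1), against 19.4 to 326 CPM in series 2 and 3 (median 56.3), a log2 difference of -1.37 ± 0.15 (adjusted p = 1.05e-07). Whether these loci share reads was not tested. IRT1, an iron uptake transporter, had medians of 4.65 CPM in series 1 and 3.57 CPM in series 2 and 3 and was not called (0.25 ± 0.12, adjusted p = 0.0913). The longer iron-response list was written after the first results were seen, so its counts are no independent check. Of its members, 11 of 18 tested genes were higher and 5 lower, with a median of 0.45. The shares were 61.1% and 27.8%, beside 22.5% and 20.1% over all genes. Of the 13 members whose values had not been seen, 8 were higher and 3 lower, and the lower share is near that over all genes. In OE 11 of the 18 were called higher and 5 lower, beside 18.8% and 18.3% over all genes, and in GL 8 higher and 5 lower, beside 9.11% and 7.06%.

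**Figure D3:**
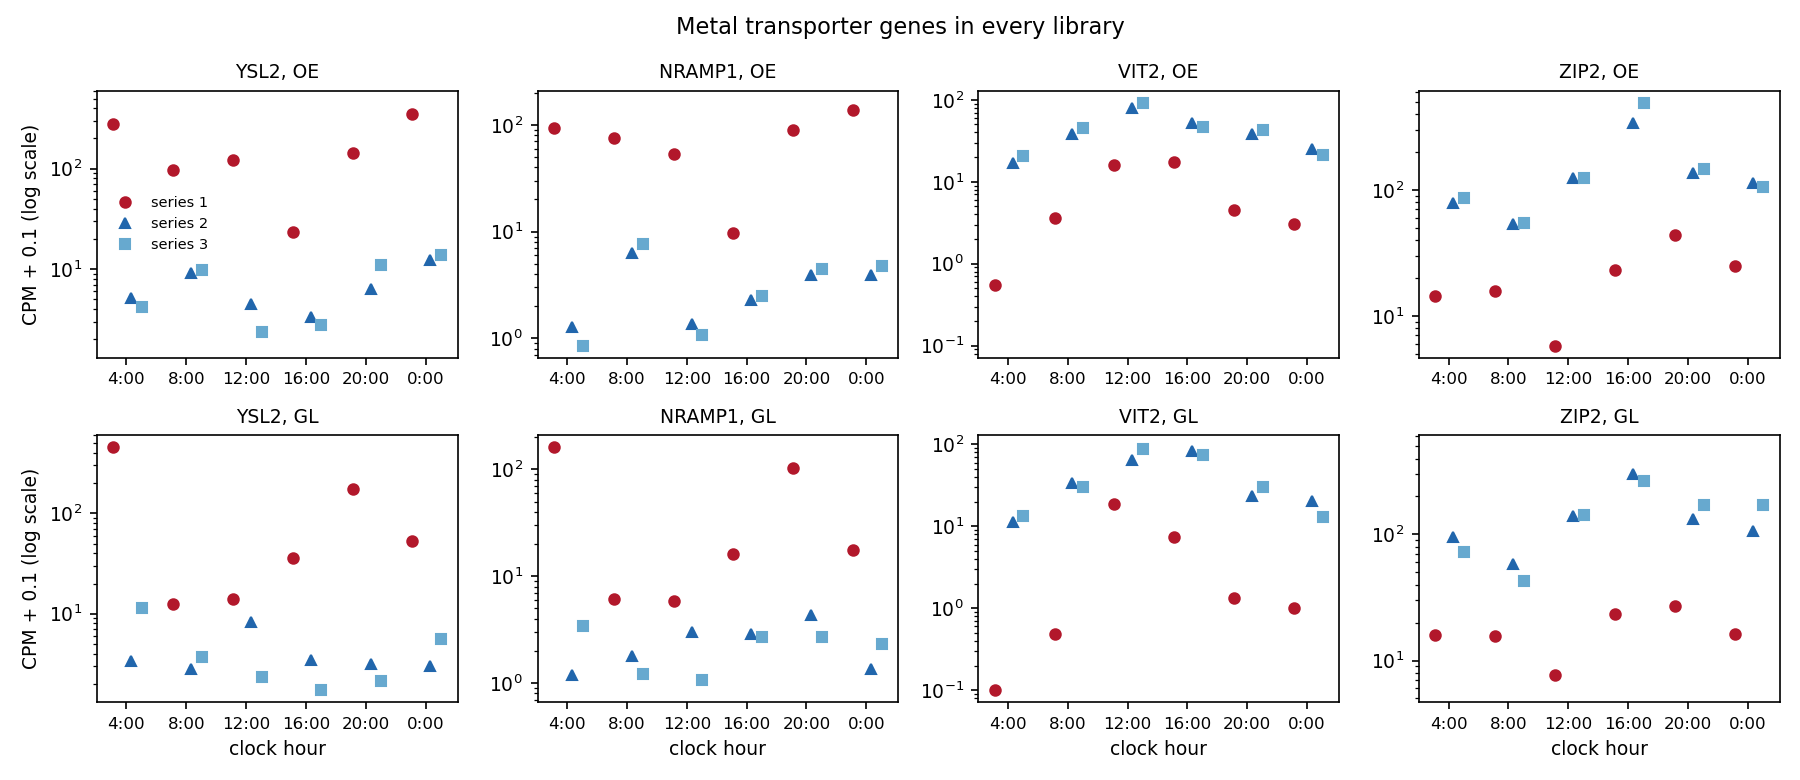
CPM plus 0.1 on a log axis for YSL2, NRAMP1, VIT2 and ZIP2 against the clock hour, with OE in the upper row, GL in the lower row and 1 point per library. At every hour the series 1 circles lie above both other series for YSL2 and NRAMP1 and below both for VIT2 and ZIP2.

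Chloroplast genes were higher in series 1 by smaller amounts. Over 5 lists (light harvesting, photosystems and electron transport, the Calvin cycle, photorespiration and chlorophyll synthesis), 47 of 59 tested genes were higher (79.7%), 1 was lower (1.69%) and 11 were not called, beside 22.5% higher and 20.1% lower over all genes. Their median log2 difference was 0.36. The mesophyll marker sum given above includes genes of these lists. In bulk leaf, more cells of a type and more RNA per cell cannot be told apart.

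Of the light-harvesting genes, which encode the chlorophyll-binding antenna, 9 of 13 tested genes were higher and 0 lower. In OE 9 were called higher, beside 18.8% over all genes, and in GL 0, beside 9.11%. The list's median was 0.49 in OE and 0.24 in GL; no member's OE and GL differences were called as different by edgeR. Lhcb4 (OS07G0558400), an antenna protein of photosystem II named after its values were seen, had 563 to 17155 CPM in series 1 (median 4384), against 324 to 14794 CPM in series 2 and 3 (median 2813), a log2 difference of 0.44 ± 0.10 (adjusted p = 0.000713). Of the photosystem and electron transport genes, 10 of 15 tested genes were higher and 1 lower. LFNR1 (OS06G0107700), a leaf ferredoxin-NADP reductase gene, had 731 to 2497 CPM in series 1 (median 2003), against 570.4 to 1979 CPM in series 2 and 3 (median 1505) and was above both other libraries in all 12 groups (0.34 ± 0.06, adjusted p = 5.55e-05). The lower member, OS07G0147500, had medians of 29.6 CPM in series 1 and 96.2 CPM in series 2 and 3, a log2 difference of -1.43 ± 0.26 (adjusted p = 6.09e-05).

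Of the Calvin cycle genes, 8 of 9 tested genes were higher and 0 lower. RCA, whose locus is listed at 0 in some libraries, was the member not called. OS06G0133800 had 1563 to 6917 CPM in series 1 (median 4104), against 1104 to 4316 CPM in series 2 and 3 (median 2402), a log2 difference of 0.66 ± 0.08 (adjusted p = 5.27e-07), and OS04G0459500 had medians of 5704 CPM in series 1 and 3022 CPM in series 2 and 3, a log2 difference of 0.78 ± 0.103 (adjusted p = 9.69e-07). Of the photorespiration genes, 10 of 10 tested genes were higher and 0 lower. OS03G0131200 had 1840 to 7657 CPM in series 1 (median 4666), against 1081 to 6695 CPM in series 2 and 3 (median 2373) and was above both other libraries in all 12 groups (0.74 ± 0.07, adjusted p = 6.33e-09). Of the chlorophyll synthesis genes, 10 of 12 tested genes were higher and 0 lower. CHLI (OS03G0563300), a subunit of magnesium chelatase, had 309 to 827 CPM in series 1 (median 436), against 178 to 499 CPM in series 2 and 3 (median 322), a log2 difference of 0.58 ± 0.08 (adjusted p = 1.30e-06), and DVR (OS03G0351200), a divinyl reductase gene, had 25.8 to 188 CPM in series 1 (median 75.8), against 16.2 to 141 CPM in series 2 and 3 (median 43.3), a log2 difference of 0.66 ± 0.09 (adjusted p = 1.58e-06). The medians were 0.598 in OE and 0.32 in GL for the Calvin cycle, 0.51 in OE and 0.28 in GL for photorespiration, and 0.58 in OE and 0.25 in GL for chlorophyll synthesis.

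Of the genes of chlorophyll breakdown and senescence, 0 of 7 tested genes were higher and 3 lower, beside 22.5% higher and 20.1% lower over all genes. The smallest adjusted p was that of OS03G0327800, with medians of 2.29 CPM in series 1 and 5.08 CPM in series 2 and 3, a log2 difference of -1.13 ± 0.19 (adjusted p = 3.79e-05). NYC1, a chlorophyll b reductase gene, was lower by the counts (-0.21 ± 0.07, adjusted p = 0.0207) but not on the FPKM scale, where the sign turned to 0.06 without a call. Of the starch and sucrose genes, 12 of 17 tested genes were higher and 2 lower (70.6% and 11.8%, beside the same shares). SSIIb (OS02G0744700), a starch synthase gene, had 26.04 to 665 CPM in series 1 (median 141), against 20.8 to 491 CPM in series 2 and 3 (median 116) and was above both other libraries in all 12 groups (0.48 ± 0.05, adjusted p = 1.77e-08). AGPS2 (OS08G0345800), a subunit of ADP-glucose pyrophosphorylase, had medians of 338 CPM in series 1 and 234 CPM in series 2 and 3, a log2 difference of 0.46 ± 0.08 (adjusted p = 2.13e-05). SUT1 (OS03G0170900), a sucrose transporter gene, was lower, with 29.1 to 128 CPM in series 1 (median 80.7), against 44.5 to 174 CPM in series 2 and 3 (median 104), a log2 difference of -0.45 ± 0.08 (adjusted p = 6.96e-05).

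**Figure D4:**
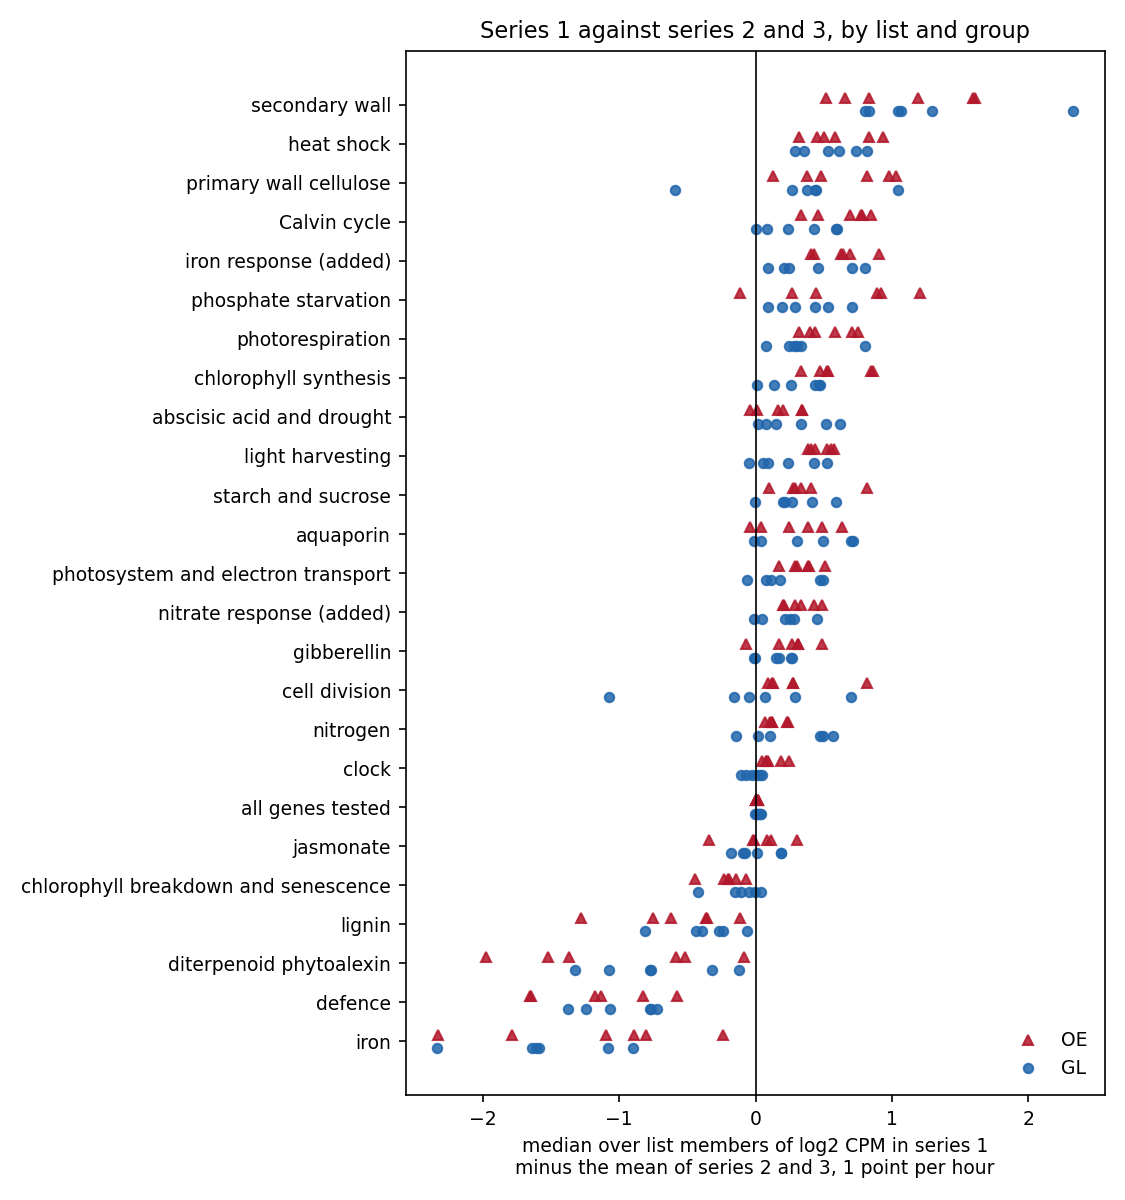
Median over the tested members of each list of log2 CPM in the series 1 library minus the mean of the series 2 and 3 libraries (horizontal axis), with 1 point per clock hour, OE as triangles and GL as circles. The chloroplast, starch and secondary wall lists lie mostly right of 0, the defence, phytoalexin, lignin and first iron lists lie left of it, and all genes tested lie at about 0.

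Defence genes were lower in series 1. Of the defence list, 0 of 10 tested genes were higher and 8 lower, and of the diterpenoid phytoalexin list, 0 of 5 tested genes were higher and 4 lower; together 80% were lower, beside 20.1% over all genes. The defence list had 6 lower and 1 higher in OE alone, beside 18.3% lower and 18.8% higher over all genes, and 4 lower and 0 higher in GL alone, beside 7.06% and 9.11%. Its medians were -1.42 in OE and -1.099 in GL. OS12G0628600 had 4.03 to 26.6 CPM in series 1 (median 8.08), against 18.6 to 209.8 CPM in series 2 and 3 (median 55.3), a log2 difference of -2.68 ± 0.27 (adjusted p = 2.25e-08). OS12G0555000 had 35.1 to 179 CPM in series 1 (median 98.3), against 134 to 814 CPM in series 2 and 3 (median 286), a log2 difference of -1.504 ± 0.15 (adjusted p = 2.39e-08). NH1 (OS01G0194300), the rice counterpart of the Arabidopsis salicylic acid receptor NPR1, had 5.65 to 32.1 CPM in series 1 (median 15.7), against 14.9 to 65.5 CPM in series 2 and 3 (median 27.5), a log2 difference of -0.96 ± 0.13 (adjusted p = 9.65e-07). All 3 were below both other libraries in all 12 groups. WRKY62 (OS09G0417800), a WRKY transcription factor, had medians of 3.98 CPM in series 1 and 10.8 CPM in series 2 and 3, a log2 difference of -1.75 ± 0.35 (adjusted p = 0.000202).

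CPS4 (OS04G0178300), the syn-copalyl diphosphate synthase of momilactone synthesis, at chromosome 4, 5318063 to 5326114, had 0.601 to 5.15 CPM in series 1 (median 1.97), against 3.07 to 61.8 CPM in series 2 and 3 (median 7.79) and was below both other libraries in all 12 groups (-2.395 ± 0.29, adjusted p = 2.43e-07). The other called genes of the list lie close to it on chromosome 4: CYP99A2 (-1.73 ± 0.23, adjusted p = 1.54e-06) and CYP99A3 (-0.52 ± 0.13, adjusted p = 0.00265), cytochrome P450 genes of the same pathway, and KSL4, its diterpene synthase gene (-1.26 ± 0.27, adjusted p = 0.000445). On log2(FPKM + 1) these low genes gave smaller differences that were still called, -1.37 for CPS4, -1.01 for CYP99A2 and -0.222 for KSL4. The median of the list was -0.418, against -1.26 by the counts. KSL7, a diterpene synthase gene of another branch on chromosome 2, had medians of 200.2 CPM in series 1 and 207 CPM in series 2 and 3 and was not called (-0.02 ± 0.07, adjusted p = 0.818). It was named after its values were seen.

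Most tested genes of the secondary wall and primary wall cellulose lists were higher in series 1. Most of the lignin list were lower. The difference between the lists was not tested. Of the secondary wall genes, 5 of 6 tested genes were higher and 0 lower, beside 22.5% higher and 20.1% lower over all genes. The median was 1.12 by the counts and 0.608 on log2(FPKM + 1). The cellulose synthase gene CesA9 (OS09G0422500), at chromosome 9, 15281413 to 15285525, had 1.69 to 7.48 CPM in series 1 (median 5.55), against 0.246 to 5.42 CPM in series 2 and 3 (median 1.38), a log2 difference of 1.79 ± 0.26 (adjusted p = 3.33e-06). CesA7 (1.802 ± 0.27, adjusted p = 7.01e-06) and CesA4 (1.26 ± 0.21, adjusted p = 2.42e-05) were higher as well, each above both other libraries in all 12 groups. On log2(FPKM + 1) they were called at 0.738 for CesA9, 0.841 for CesA7 and 0.734 for CesA4. BC1, another of the 5 higher members and named after its values were seen, lost its call there, with 0.144 (adjusted p = 0.296 in limma), against 0.988 by the counts. These 3 genes also mark fibre and vessel cells, and their sum was 7.497 to 27.2 CPM in series 1 and 1.54 to 17.2 CPM in series 2 and 3. Of the primary wall cellulose genes, 6 of 6 tested genes were higher and 0 lower, with a median of 0.49. In OE 6 of them were called, beside 18.8% higher over all genes, and in GL 0, beside 9.11%, with medians of 0.61 in OE and 0.33 in GL. At 8:00, 6 of 6 were above the mean of the other libraries in OE (median log2 difference 0.376) and 0 of 6 in GL (median -0.594). Each of these values rests on 1 library of series 1, and the difference between the genotypes at that hour was not tested. Of the lignin genes, 1 of 5 tested genes were higher and 4 lower, the higher one being OS05G0320700 (0.51 ± 0.08, adjusted p = 1.33e-05). CAD2 (OS02G0187800), a cinnamyl alcohol dehydrogenase gene, had 5.96 to 22.9 CPM in series 1 (median 9.83), against 9.96 to 55.99 CPM in series 2 and 3 (median 19.8), a log2 difference of -1.003 ± 0.14 (adjusted p = 2.95e-06).

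**Figure D5:**
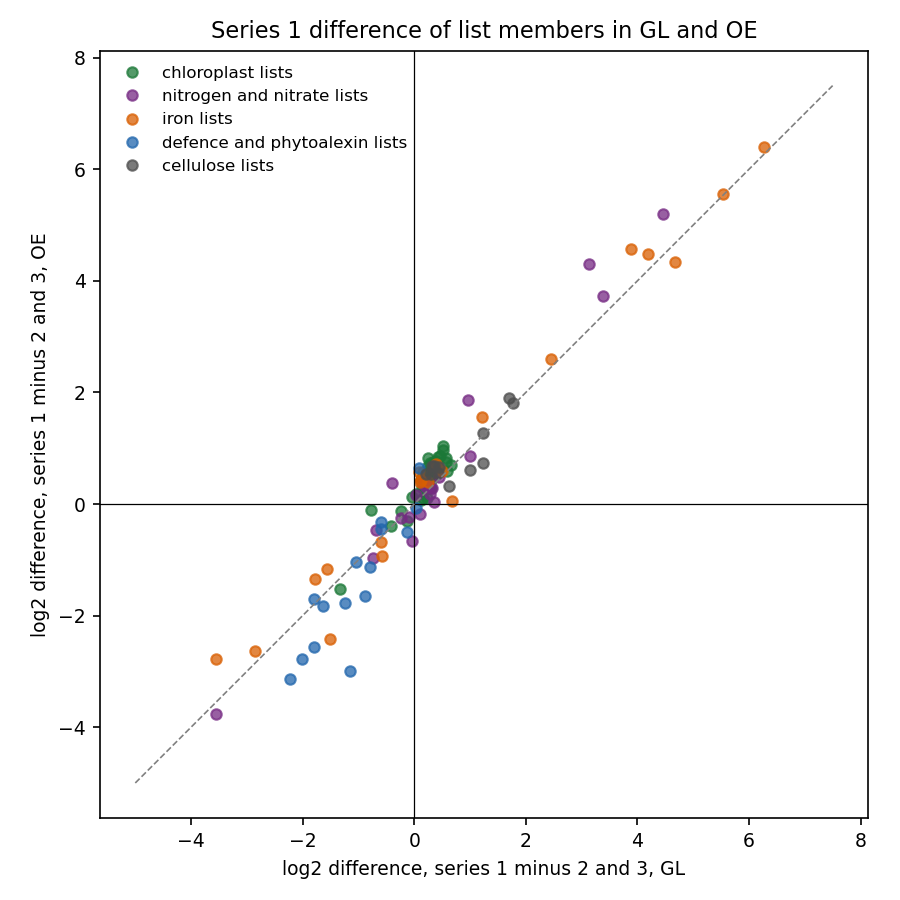
Log2 difference of series 1 from series 2 and 3 in OE (vertical axis) against that in GL (horizontal axis), with 1 point per tested gene of 13 lists, RCA and OS02G0770800 left out; the dashed line marks equal differences. Some nitrogen and iron genes lie beyond 4 on both axes, chloroplast genes mostly between 0 and 1, and defence and phytoalexin genes mostly below 0 in both genotypes.

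The counts of the lists that follow stand beside 22.5% higher and 20.1% lower over all genes, and those by genotype beside 18.8% and 18.3% in OE and 9.11% and 7.06% in GL. HSP101 (OS05G0519700), a chaperone of the heat shock list, had 9.87 to 28.9 CPM in series 1 (median 13.8), against 5.27 to 19.4 CPM in series 2 and 3 (median 8.76) and was above both other libraries in all 12 groups (0.73 ± 0.07, adjusted p = 5.06e-09). HSFA2d, a heat shock factor gene, was higher (0.71 ± 0.11, adjusted p = 1.43e-05). HSP17.4, a small heat shock protein gene, had medians of 0.595 CPM in series 1 and 0.615 CPM in series 2 and 3. Of the aquaporin genes, 6 of 7 tested genes were higher and 0 lower, among them PIP1;2 (0.34 ± 0.07, adjusted p = 0.000198), with 4 called higher in OE and 4 in GL. Of the phosphate starvation genes, 3 of 3 tested genes were higher and 0 lower, among them SPX1 (0.42 ± 0.11, adjusted p = 0.00231), with 3 called higher in OE and 0 in GL. Of the gibberellin genes, 4 of 8 tested genes were higher and 1 lower, the last being SD1, a gibberellin 20-oxidase gene (-0.86 ± 0.19, adjusted p = 0.000711). In OE 4 of these were called higher and 1 lower, and in GL 0 either way. Of the abscisic acid and drought genes, 4 of 10 tested genes were higher and 2 lower, among the higher ones bZIP23, a transcription factor of abscisic acid signalling (0.43 ± 0.09, adjusted p = 0.000228). The 20% lower is near the share over all genes. Of the jasmonate genes, 1 of 11 tested genes were higher and 1 lower (9.09% each way, under the shares over all genes), the last being AOS2, an allene oxide synthase gene (-1.91 ± 0.42, adjusted p = 0.000582), which on log2(FPKM + 1) was called at -0.468. Of the cold list, 0 of 2 tested genes were higher and 1 lower, which was DREB1A (-1.81 ± 0.41, adjusted p = 0.000866), called at -1.13 on log2(FPKM + 1). CHI, the 1 tested flavonoid gene, was higher (0.26 ± 0.09, adjusted p = 0.0273).

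Of the clock genes, 2 of 13 tested genes were higher and 0 lower, with a median of 0.03. The called members were OS02G0150800 (0.26 ± 0.04, adjusted p = 3.97e-05) and OS11G0621500, with medians of 6.24 CPM in series 1 and 0.9397 CPM in series 2 and 3, a log2 difference of 2.49 ± 0.48 (adjusted p = 0.000149). OsPRR37 had medians of 634 CPM in series 1 and 652 CPM in series 2 and 3, a log2 difference of -0.03 ± 0.07 (adjusted p = 0.77), and OsGI, a further clock gene named after its values were seen, had medians of 659 CPM in series 1 and 628 CPM in series 2 and 3, a log2 difference of -0.09 ± 0.07 (adjusted p = 0.287). Of the cell division genes, 0 of 3 tested genes were higher and 0 lower by edgeR, and DESeq2 also called 0. Actin1, a reference gene, had medians of 42.9 CPM in series 1 and 40.3 CPM in series 2 and 3, a log2 difference of 0.05 ± 0.06 (adjusted p = 0.461).

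The size of the series 1 difference depended on the clock hour for 1014 genes (4.66%), and for 631 without the GL series 1 library at 4:00. DESeq2 gave 2181 such genes, while edgeR gave 1 against series 3 only and 10 against series 2 only, with fewer libraries in these fits. At single hours the calls numbered 4541 at 4:00 (20.9%), 1824 at 8:00 (8.38%), 2269 at 12:00 (10.4%), 2679 at 16:00 (12.3%), 1675 at 20:00 (7.69%) and 1729 at 0:00 (7.94%). Series 1 held 1 library of each genotype at an hour, so values by hour rest on few libraries. The log2 difference of NIA1 was 4.78, 2.98, 2.47, 2.25, 4.77 and 5.66 from 4:00 to 0:00, smallest at 16:00 and largest at 0:00. Averaged over both genotypes, the median of each of the 5 chloroplast lists was above 0 at all 6 hours and smallest at 8:00, where it was 0.16 for light harvesting, 0.14 for photosystems, 0.18 for the Calvin cycle, 0.298 for photorespiration and 0.29 for chlorophyll synthesis. Set against the mean of the other libraries at that hour, the medians were 0.404 in OE and -0.0512 in GL for light harvesting, 0.392 in OE and -0.0632 in GL for photosystems, 0.454 in OE and 0 in GL for the Calvin cycle, 0.437 in OE and 0.241 in GL for photorespiration, and 0.472 in OE and 0.132 in GL for chlorophyll synthesis. In GL at 8:00, 3 of 13 light-harvesting, 7 of 15 photosystem, 4 of 9 Calvin cycle, 9 of 10 photorespiration and 8 of 12 chlorophyll synthesis genes were higher in the 1 library of series 1. The Calvin cycle median of 0 and its 4 of 9 include RCA, whose locus is listed at 0 in some libraries. The values without RCA were not computed. The difference between the genotypes at single hours was not tested.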

How the data were processed

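RNA of leaves from 36 libraries was sequenced on the HiSeq2500 after preparation with NEBNext Ultra, per the labels' protocols. TopHat2, Cufflinks, Cuffdiff and the build IRGSP-1.0 are named, without versions, in the submitters' processing notes. The authors deposited, for each of 35477 loci, an estimated count, FPKM and a transcript length, per the file headers. The deposited counts are whole and 97.5% lie within 1 of the deposited normalised value after rescaling, so they may be rounded estimates. Depth was 8065894 to 15769659 counts a library.

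Counts were tested with edgeR 4.0.16 (quasi-likelihood, TMM scaling, Benjamini-Hochberg, threshold 0.05) in R 4.3.3, over 21772 loci passing filterByExpr (minimum count 10, minimum total 15). The model held the 12 groups and a series 1 term in each genotype; further models held series 1 by hour, and each series apart. Errors are SE from the fit. The statistics were tested on simulated data with each library drawn independently, so a source shared by libraries was not covered. Of genes changed 1.5-fold in series 1, 64.6% were recovered in the average, 54.5% in OE and 56.6% in GL. The hour term recovered 30.3% of genes changed 2.25-fold at 1 hour and 63.3% of those changed 4-fold. Far fewer genes were changed in the simulation than were called in the data. The average called 325 genes there, against 9281 in the data, so these shares need not hold for the data. Alternatives were DESeq2 1.42.0 and limma 3.58.1, on counts, series means and log2(FPKM + 1) or log2(FPKM + 0.1). Transcript lengths deposited by the authors were used to divide genes into 10 classes of equal number. The members of the lists, and the comparison itself, were chosen with earlier results of these data known, and 2 lists were written after the first results. Up to 4 members of a list, those lowest in adjusted p, were named. Outside the lists written first, at most 2 unnamed identifiers each way were given. Exceptions are stated. Of 248 members of the lists written first, 217 were kept. For 139 of these the name was kept because the RefSeq gene table lists it no more than 5 Mb away. A match that loose does not show that the name belongs to the locus. The other 78 have no name in that table, go by identifier, and were placed in their lists without its support. Sequences are not shown.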

Additional observations from a re-analysis of the deposited data

Results flagged for a closer look

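The difference of series 1 from series 2 and 3 depended on the clock hour for 16 of 104 named genes, by the test of the hour term in edgeR with adjustment over all genes. That test called 1014 of all 21772 genes (4.66%). It called 1 against series 3 only and 10 against series 2 only, with fewer libraries in these fits, and DESeq2 called 2181. Most named genes were picked for a low adjusted p of the series 1 difference, so they are no fair sample of all genes. Each group held 3 libraries, so no library was tested as an outlier within its group. Series 1 held 1 library of each genotype at an hour, so values by hour rest on few libraries. Some also rest on low counts. At 8:00 OS03G0291500 had 1.08 CPM in series 1 of OE and 0 CPM in series 1 of GL. Among nitrogen genes, the log2 difference of OS01G0357100 was 3.32 at 12:00 and 6.96 at 4:00 (adjusted p = 8.41e-05), that of the overlapping OS01G0357150 was 3.06 at 12:00 and 6.79 at 4:00 (adjusted p = 2.68e-05), that of NIA1 was 2.25 at 16:00 and 5.66 at 0:00 (adjusted p = 0.000568), and that of OS03G0291500 was -5.28 at 8:00 and -1.88 at 20:00 (adjusted p = 0.00615).

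Among metal genes, the log2 difference of IRO3 was 1.05 at 8:00 and 4.01 at 20:00 (adjusted p = 8.41e-05), that of ZIP2 was -4.32 at 12:00 and -1.74 at 8:00 (adjusted p = 0.000499), and that of VIT2 was -6.20 at 4:00 and -2.18 at 12:00 (adjusted p = 0.00299). NRAMP1 gave 2.35 at 16:00 and 6.35 at 4:00 (adjusted p = 0.00546), and NAS3 gave -4.23 at 20:00 and -1.22 at 8:00 (adjusted p = 0.00979). The largest falls of VIT2 and NAS3 rest on low counts. At 4:00 VIT2 had 0.453 CPM in series 1 of OE and 0 CPM in series 1 of GL. At 20:00 NAS3 had 0.376 CPM in series 1 of OE and 0.754 CPM in series 1 of GL.

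Other named genes changed sign or size over the day. JAZ10, a jasmonate repressor gene, gave -1.51 at 0:00 and 2.17 at 16:00 (adjusted p = 0.0102), and OS11G0547000 of the clock list gave -5.02 at 8:00 and 0.72 at 12:00 (adjusted p = 0.0136). SD1 gave -3.44 at 0:00 and -0.21 at 16:00 (adjusted p = 0.0269), NH1 gave -1.88 at 12:00 and -0.50 at 0:00 (adjusted p = 0.0317), and OS02G0514500 of the phosphate starvation list gave -0.08 at 0:00 and 1.69 at 12:00 (adjusted p = 0.0385). OsLHY, a morning clock gene, gave -0.35 at 16:00 and 0.80 at 0:00 (adjusted p = 0.0394), and TIP2;2, an aquaporin gene, gave 0.11 at 8:00 and 1.32 at 16:00 (adjusted p = 0.0483).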

How the results depend on the processing

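Of 173 called genes in the lists or named, 135 kept their direction and call under every one of the 48 alternatives that gave them a value, 36 of which left out 1 library each, and 161 were called with each series counted once. GSA turned to -0.00420 on log2(FPKM + 1) and -0.00431 on log2(FPKM + 0.1), and NYC1 to 0.0630 and 0.0635, without a call. GSA, of the chlorophyll synthesis list, lost its call in a further 29 of the 48 alternatives. SUS2 of the starch and sucrose list lost its call in 30, EUI1 of the gibberellin list in 29 and Cht3 of the defence list in 23. These genes are among those counted as called in their lists above. On log2(FPKM + 1), 21 of the 173 had a difference over 1.5 times smaller or turned, 17 of them still called, and the medians of 3 lists moved by more than the SD of the list's median over the 12 groups, to -0.876 for defence, -0.418 for phytoalexins and 0.608 for the secondary wall; a pseudocount of 1 understates low genes by its construction. OsLUX, not called in the main test, was -0.39 on series means (adjusted p = 0.0133 in limma). Counts below are genes called. DESeq2 gave 75 for the OE minus GL difference, 2181 for the hour term and 6 for series 2 against 3. Without a filter on low counts the difference gave 4 and series 2 against 3 gave 1. With the replicate block (genotype and series as a random block, consensus correlation -0.022), the average gave 10325, OE 9431, GL 4340 and the difference 23; whether the numbers pair libraries across genotypes is not stated in the labels. With each series counted once, GL gave 1739, both genotypes 1466 and the difference 0. On log2(FPKM + 1) the difference gave 1 and series 2 against 3 gave 5; on log2(FPKM + 0.1) the second gave 2. Against series 3 only, GL gave 1019, both genotypes 850 and the hour term 1; against series 2 only, OE gave 4420, GL 1997, both genotypes 1534 and the hour term 10, with fewer libraries in these fits. With GL replicate 3 at 0:00 grouped as OE, the average gave 8932 and the hour term 711. Leaving out 1 library in turn gave 8460 to 9378 for the average, 6414 to 8303 in OE, 2217 to 3656 in GL, 1836 to 2908 in both, 0 to 191 for the difference and 631 to 1250 for the hour term. The cause of these shifts was not tested. Leaving out the RCA locus was added after seeing the data.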

Other observations

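Over all genes, both genotypes called 1521 higher (6.99%) and 1304 lower (5.99%) in series 1. Of those outside the lists written first, with members of the 2 later lists still counted, 637 higher and 601 lower lay on the same side in all 12 groups. All of these had a mean log2 CPM of at least 2. The largest fall among these was that of OS03G0129400, which has no name in the reference table and had 0 to 5.65 CPM in series 1 (median 0.432), against 2.43 to 209 CPM in series 2 and 3 (median 26.1) (-5.93 ± 0.35, adjusted p = 5.35e-13).

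The series 1 difference varied with the hour at which a gene was highest in series 2 and 3, among genes whose level ranged over at least 2 on the log2 scale. Genes highest at 8:00 had a median log2 difference of 0.161, with 38.2% higher and 12.9% lower in series 1, and genes highest at 0:00 a median of 0.208, with 34.2% higher and 9.64% lower. Genes highest at 20:00 had a median of -0.0795, with 11.5% higher and 24.3% lower. The medians were 0.0332 for genes highest at 4:00, 0.179 at 12:00 and -0.0707 at 16:00. By transcript length, in 10 classes from the shortest to the longest genes, the share higher was 20% in the first class, 17.1% in the second, 18.1% in the third and 30.5% in the longest. The share lower was 14.5%, 23%, 25.4% and 10.9% in the same classes, highest in the third. The part of length or peak hour in the results above was not tested.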
